A study of Mus musculus with 9 samples.

Results

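Immediate-early response genes were followed through the activation of mouse splenic B cells with and without Mct1. The 10 genes Fos, Fosb, Jun, Egr1, Egr2, Egr3, Nr4a1, Ier2, Dusp1 and Btg2 were taken by gene symbol from the 17596 genes of the deposited expression table, and each was found on 1 row. All 10 passed the filter on low values, which asked for 1 FPKM or more as the mean of the 9 libraries (FPKM, a read density scaled to transcript length and library size), and were tested within the fit of all 10823 genes that did so. On GRCm38 (GENCODE M21) they lie at chr12:85473890-85477273 (Fos), chr7:19302696-19310051 (Fosb), chr4:95049034-95052222 (Jun), chr18:34859823-34864984 (Egr1), chr10:67535475-67542188 (Egr2), chr14:70077203-70082614 (Egr3), chr15:101254269-101274795 (Nr4a1), chr8:84661331-84662852 (Ier2), chr17:26505590-26562128 (Dusp1) and chr1:134075170-134079120 (Btg2). Fosb passed it through day 0 alone, with a mean of 0.034 FPKM on day 3, whereas the other 9 genes had means of at least 1 FPKM on both days.

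Primary B cells from the spleen were sequenced untreated (day 0) or after 3 days in culture with IL-4 at 50 ng/ml and LPS at 10 μg/ml, a mixture that activates B cells and makes them switch antibody class. Control cells came from Mb1Cre mice, in which Cre recombinase is expressed from the B lineage locus Mb1 (Cd79a), with 2 libraries on each day. Mct1-deficient cells came from Mct1f/fMb1Cre mice (Mctf/fMb1Cre in the labels), which carried Cre together with 2 copies of an Mct1 allele floxed from exon 1 to intron 3, with 2 libraries on day 0 and 3 on day 3. Cre was thus present in every library, and the deletion was limited to cells that express it. The mice were 6 to 8 weeks old, and the floxed allele was made on the C57BL/6J background. The labels named no mouse, sex, batch or pool, so the p values measure the spread between these libraries, which may be technical. In each group the first library named is replicate 1.

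Immediate-early genes are transcribed within minutes of a stimulus from factors that are already in the cell, without new protein synthesis, and their short-lived transcripts usually disappear again soon afterwards. In B cells the antigen receptor and Toll-like receptors reach them through the ERK, JNK and p38 kinase cascades, which act on serum response factor with its ternary complex partners and on CREB. FOS and JUN proteins pair to form the transcription factor AP-1, EGR proteins are zinc finger factors, NR4A1 (Nur77) is an orphan nuclear receptor widely used as a reporter of antigen receptor signalling, DUSP1 removes phosphate from the MAP kinases, and BTG2 is an antiproliferative cofactor of mRNA deadenylation.

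The stretches of 250 bases before the start site are shown for 4 genes whose courses between the days differed: Fos and Fosb, which had the lowest levels on day 3, Jun, which did not pass the test, and Egr2, the 1 gene that rose. They were taken from RefSeq on GRCm38.p6 and run 5′ to 3′ on the strand of the gene, from chr12:85473640-85473889 (plus strand) for Fos, chr7:19310046-19310295 (minus strand) for Fosb, chr4:95052223-95052472 (minus strand) for Jun and chr10:67537619-67537868 (plus strand) for Egr2, which has 5 such windows and is shown by the 1 nearest to the start of its principal transcript. Capitals mark matches on either strand to any of 6 motifs: the CArG box of serum response factor, the cyclic AMP response element TGACGTCA, the AP-1 site TGANTCA, the EGR site GCGNGGGCG, the TATA box TATAAA and the NF-κB site.
Fos: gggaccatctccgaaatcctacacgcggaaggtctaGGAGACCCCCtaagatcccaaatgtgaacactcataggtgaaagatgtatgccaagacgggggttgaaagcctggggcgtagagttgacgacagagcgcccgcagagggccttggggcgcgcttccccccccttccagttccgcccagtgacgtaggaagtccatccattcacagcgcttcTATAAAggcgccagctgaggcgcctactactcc
Fosb: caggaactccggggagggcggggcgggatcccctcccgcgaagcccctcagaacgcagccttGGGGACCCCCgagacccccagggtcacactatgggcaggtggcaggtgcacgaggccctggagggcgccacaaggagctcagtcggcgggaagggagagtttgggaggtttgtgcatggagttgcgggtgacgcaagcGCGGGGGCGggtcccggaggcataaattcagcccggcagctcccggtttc
Jun: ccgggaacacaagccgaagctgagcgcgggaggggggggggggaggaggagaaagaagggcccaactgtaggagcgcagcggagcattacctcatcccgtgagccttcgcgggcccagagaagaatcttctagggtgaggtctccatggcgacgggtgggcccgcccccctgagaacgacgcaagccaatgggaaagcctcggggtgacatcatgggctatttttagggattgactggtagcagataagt
Egr2: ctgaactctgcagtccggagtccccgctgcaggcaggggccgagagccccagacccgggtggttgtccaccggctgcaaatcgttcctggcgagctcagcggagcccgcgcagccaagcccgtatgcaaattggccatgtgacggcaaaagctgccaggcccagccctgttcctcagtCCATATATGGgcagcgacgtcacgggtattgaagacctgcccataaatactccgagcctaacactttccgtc
In Fos the capitals are an NF-κB match and, nearer to the start, a TATA box. Fosb has an NF-κB match and an EGR site, Jun has none of the 6 motifs in its window, and Egr2 has a CArG box 72 to 63 bases before the start. Windows were present for 7 of the 10 genes; Egr1, Egr3 and Ier2 had no entry. The CArG box was found in 1 of these 7 windows against 1.47% of all 32851 promoter windows, the cyclic AMP response element in 2 (Dusp1 and Btg2) against 1.55%, the EGR site in 3 (Fosb, Nr4a1 and Btg2) against 4.7%, the NF-κB site in 2 (Fos and Fosb) against 7.25%, the TATA box in 1 (Fos) against 12.4% and the AP-1 site in 0 against 6.75%. These are matches of letters, and binding was not measured here. Sites more than 250 bases before the start were not searched, so a motif missing from a window may still lie further upstream.

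**Figure D1:**
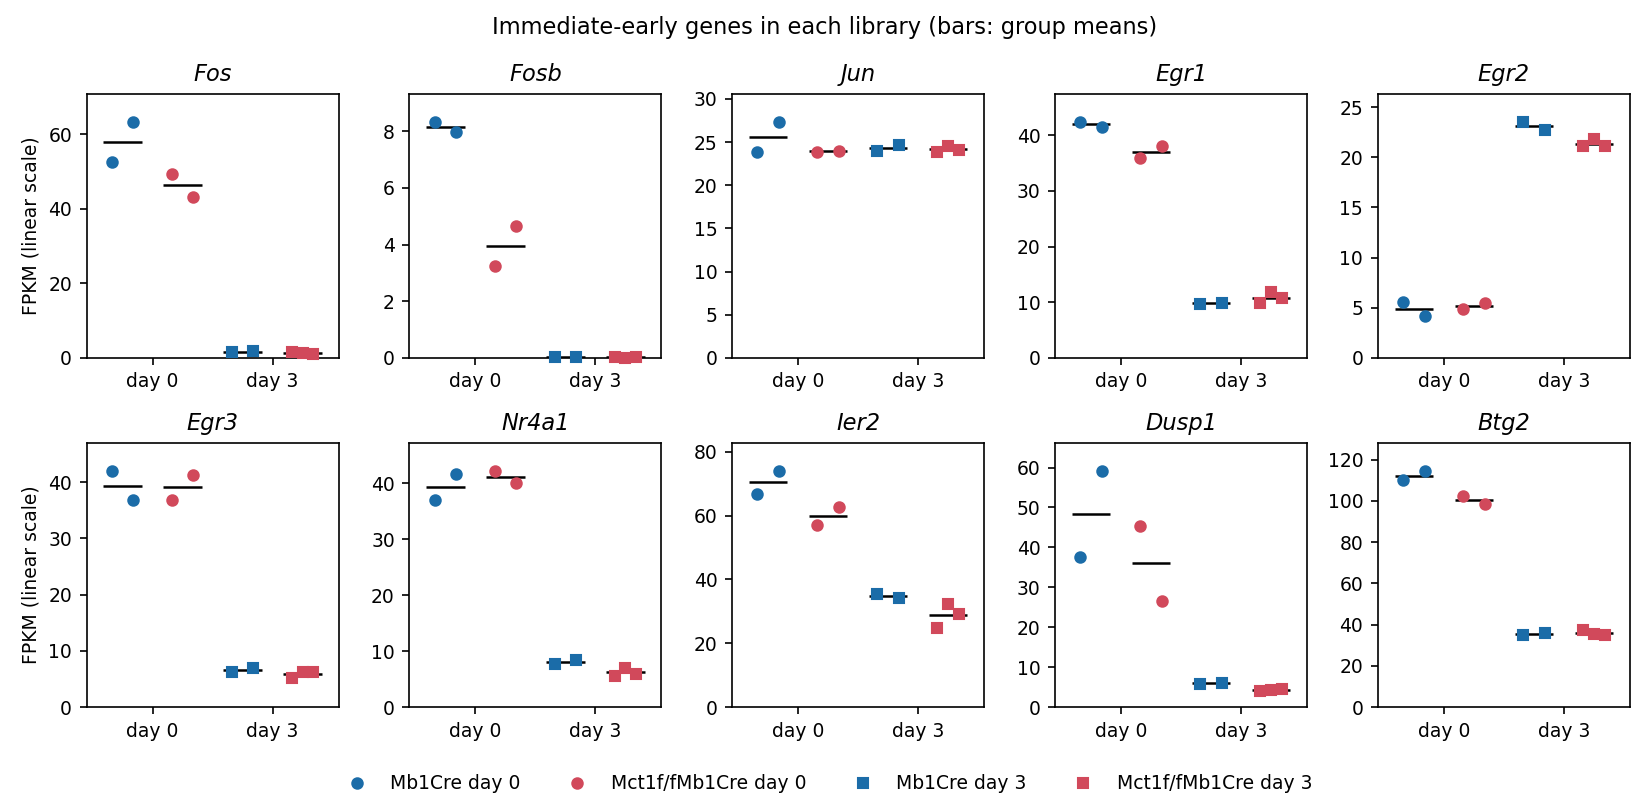
FPKM of each of the 10 genes (linear vertical axis from 0, a separate range for each gene) in the 9 libraries, with day 0 on the left (circles) and day 3 on the right (squares), Mb1Cre in blue, Mct1f/fMb1Cre in red and the group mean as a black bar. 8 genes are lower in every day 3 library than in any day 0 library, Egr2 is higher, from 4.18 to 5.60 FPKM on day 0 to 21.13 to 23.54 FPKM on day 3, and Jun stays between 23.83 and 27.35 FPKM.

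The first comparison was between day 0 and day 3 within each genotype. In control cells 8 of the 10 genes were called lower, 1 was called higher (Egr2) and 1 did not pass the test (Jun), and the Mct1-deficient cells gave the same 8, 1 and 1. Fosb is 1 of the 8, and since it passed the filter through day 0 alone, its lower level on day 3 is a description and counts for no more than that. A gene was called changed at an adjusted p under 0.05 in limma and a difference of more than 0.5 in mean log2(FPKM + 1), a scale that understates the change of genes with low values. By this rule 57.8% of all tested genes were called in control cells (24.8% higher and 33% lower) and 56.5% in Mct1-deficient cells (23.4% higher and 33.2% lower), so that a change as such was common. The 8 genes had no overlap between the days in either genotype, as 51.5% of all tested genes had downward in each, and Egr2 none upward, as 40.4% in control and 38.3% in Mct1-deficient cells. The median log2 difference of the 10 genes was -2.07 in control and -1.97 in Mct1-deficient cells, beside -0.12 and -0.14 over all tested genes. With median-of-ratios scaling the median over all genes became 0.06 in both genotypes, and 3425 genes were higher and 2761 lower in control cells in place of 2687 and 3571. The calls of these 10 genes were the same under each of the 3 other scalings that were tried.

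Among the AP-1 genes, Fos had the largest change on this scale. In control cells it had 52.67 and 63.32 FPKM on day 0, against 1.58 and 1.74 FPKM on day 3. Mct1-deficient cells had 49.42 and 43.12 FPKM on day 0, against 1.48, 1.36 and 1.16 FPKM on day 3. Every day 3 library was therefore far below every day 0 library, by 34.9-fold in the control means and 34.7-fold in the Mct1-deficient means. The log2 differences were -4.47 (standard error 0.10, adjusted p = 1.57e-11) and -4.34 (0.09, 9.94e-12).

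Fosb, a close relative of Fos with a similar leucine zipper, had 8.33 and 7.98 FPKM in control cells on day 0 and 0.04 FPKM in both control libraries on day 3. In Mct1-deficient cells it had 3.24 and 4.65 FPKM on day 0, against 0.04, 0.01 and 0.04 FPKM on day 3. The day 3 values lay close to 0.01 FPKM, the smallest step of the rounded table, and fold changes against them are imprecise. The log2 differences were -3.14 in control and -2.25 in Mct1-deficient cells, and their size follows the pseudocount: they were -5.88 and -4.95 with 0.1 FPKM added and -1.38 and -0.83 with 5 FPKM added.

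Jun, the partner of FOS proteins in AP-1, had 23.86 and 27.35 FPKM on day 0, against 24.00 and 24.70 FPKM on day 3 in control cells. In Mct1-deficient cells the values were 23.91 and 24.01 FPKM on day 0, against 23.83, 24.58 and 24.12 FPKM on day 3. The days overlapped in both genotypes. Its log2 differences were -0.07 in control cells (95% confidence interval -0.20 to 0.07, adjusted p = 0.319) and 0.01 in Mct1-deficient cells (-0.11 to 0.13, adjusted p = 0.840), and both intervals left out a change of 0.5 on this scale. The sign followed the scaling: with median-of-ratios scaling the control difference was 0.14 (adjusted p = 0.0800), and scaled to a common total the Mct1-deficient difference was -0.16 (adjusted p = 0.0180). Over all alternatives the difference ran from -0.26 to 0.14 in control cells, with adjusted p values in limma down to 0.00151. In Mct1-deficient cells it ran from -0.16 to 0.22, with adjusted p values down to 0.00611. Jun thus passed the adjusted p under some settings in both genotypes, while every difference stayed below the limit for a call. Jun overlaps the antisense gene Junos on the opposite strand over 232 of its 3189 exonic bases, and since the counting is not stated to use strand, their reads cannot be told apart over this stretch.

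The families to which these genes belong were summed in each library. Fos, Fosb, Fosl1 and Fosl2 together had 50.2 to 74.2 FPKM on day 0 and 2.39 to 4.81 FPKM on day 3, and Fos made up 80.3% to 88.7% of this sum on day 0 and 32.8% to 61.9% on day 3. Jun, Junb and Jund together had 302 to 426 FPKM on day 0 and 396 to 451 FPKM on day 3, and Jun made up 5.45% to 7.93% of the sum over both days. The FOS sum was lower in every day 3 library than in any day 0 library. The JUN sums of the days overlapped in control cells, with 377 and 426 FPKM against 421 and 417 FPKM, and did not overlap in Mct1-deficient cells, with 302 and 348 FPKM against 396, 451 and 433 FPKM.

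**Figure D2:**
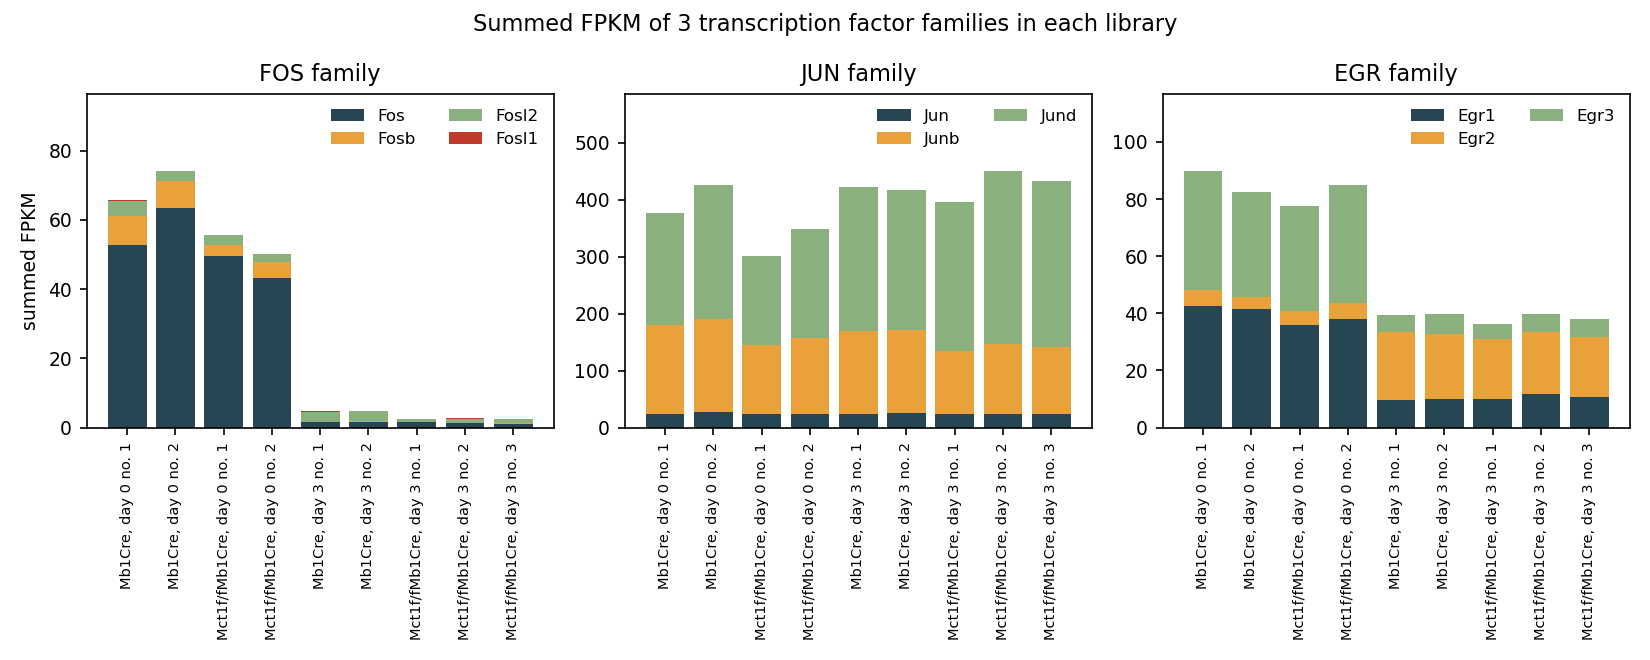
Summed FPKM (vertical axis, linear from 0) of the FOS, JUN and EGR family genes in each of the 9 libraries, stacked by gene. The FOS bars fall from 50.2 to 74.2 FPKM on day 0 to 2.39 to 4.81 FPKM on day 3, the JUN bars overlap between the days in control cells and are higher on day 3 in Mct1-deficient cells, and in the EGR bars the orange section, Egr2, grows from 5.07% to 6.48% of the sum to 54.6% to 59.6%.

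The EGR genes divided. Egr1, which has no window above, had 42.41 and 41.48 FPKM in control cells on day 0 and 9.76 and 9.85 FPKM on day 3, and 35.88 and 38.14 FPKM against 9.94, 11.78 and 10.69 FPKM in Mct1-deficient cells. Egr3 had 41.97 and 36.82 FPKM on day 0, against 6.20 and 7.01 FPKM on day 3 in control cells, and 36.80 and 41.33 FPKM against 5.20, 6.32 and 6.30 FPKM in Mct1-deficient cells. Both fell without overlap between the days. The log2 differences of Egr1 were -1.99 in control cells (standard error 0.07, adjusted p = 3.40e-10) and -1.69 in Mct1-deficient cells (0.06, 5.43e-10), and those of Egr3 were -2.41 (0.10, 1.27e-09) and -2.53 (0.09, 3.75e-10).

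Egr2, which encodes a zinc finger factor of the same family, went the other way. It had 5.60 and 4.18 FPKM on day 0, against 23.54 and 22.75 FPKM on day 3 in control cells. The Mct1-deficient cells had 4.92 and 5.51 FPKM on day 0, against 21.17, 21.78 and 21.13 FPKM on day 3. It rose 4.73-fold in the control means and 4.10-fold in the Mct1-deficient means, without overlap between the days (log2 differences 2.05, standard error 0.10, adjusted p = 4.00e-09, and 1.85, 0.09, 4.00e-09). The summed FPKM of Egr1, Egr2 and Egr3 fell from between 77.60 and 89.98 to between 36.31 and 39.88, while the share of Egr2 in it went from between 5.07% and 6.48% to between 54.6% and 59.6%. Egr4, the remaining family member, was listed at no more than 0.03 FPKM in any library.

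Nr4a1 had 37.03 and 41.70 FPKM on day 0, against 7.68 and 8.41 FPKM on day 3 in control cells. In Mct1-deficient cells it had 42.16 and 40.04 FPKM on day 0, against 5.61, 6.95 and 5.99 FPKM on day 3. The days did not overlap, and the log2 differences were -2.16 (standard error 0.09, adjusted p = 1.31e-09) and -2.55 (0.08, 1.54e-10). The other receptors of its family were low on both days, with 0.14 to 0.30 FPKM of Nr4a2 and 1.06 to 1.78 FPKM of Nr4a3.

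Ier2, a nuclear protein gene named for its immediate-early response, kept the largest share of its day 0 level among the 8 genes that fell. It had 66.81 and 73.95 FPKM on day 0, against 35.46 and 34.07 FPKM on day 3 in control cells, and 57.10 and 62.78 FPKM against 24.82, 32.37 and 29.11 FPKM in Mct1-deficient cells. Day 3 was at 49.4% and 48.0% of day 0, with log2 differences of -0.995 (standard error 0.10, adjusted p = 2.72e-06) and -1.04 (0.09, 7.95e-07).

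The 2 genes that encode feedback regulators also fell. Dusp1 had 37.55 and 59.12 FPKM on day 0, against 5.88 and 6.02 FPKM on day 3 in control cells, and 45.37 and 26.55 FPKM against 3.92, 4.15 and 4.53 FPKM in Mct1-deficient cells. Its day 0 libraries were far apart in both genotypes, yet none came near the day 3 values, and the log2 differences were -2.79 (standard error 0.22, adjusted p = 3.68e-07) and -2.78 (0.20, 1.59e-07). Btg2 had the highest level of the 10 genes on day 0, with 109.91 and 114.42 FPKM in control and 102.12 and 98.52 FPKM in Mct1-deficient cells. On day 3 it had 34.98 and 35.97 FPKM in control and 37.46, 35.66 and 35.08 FPKM in Mct1-deficient cells. The log2 differences of Btg2 were -1.63 (standard error 0.05, adjusted p = 8.27e-11) and -1.45 (0.04, 9.14e-11). Dusp1 shares 11 exonic bases with Ergic1 on the opposite strand.

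The order of the levels also changed between the days. On day 0 the order by mean FPKM over the 4 libraries was Btg2, Ier2, Fos, Dusp1, Nr4a1, Egr1, Egr3, Jun, Fosb and Egr2, and the ranges of neighbours overlapped from Ier2 to Egr3 and between Fosb and Egr2. On day 3 it was Btg2, Ier2, Jun, Egr2, Egr1, Nr4a1, Egr3, Dusp1, Fos and Fosb, with overlap between Btg2 and Ier2, between Nr4a1 and Egr3 and between Egr3 and Dusp1. Summed over the 10 genes, the level was 385 to 470 FPKM on day 0 and 133 to 151 FPKM on day 3.

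**Figure D3:**
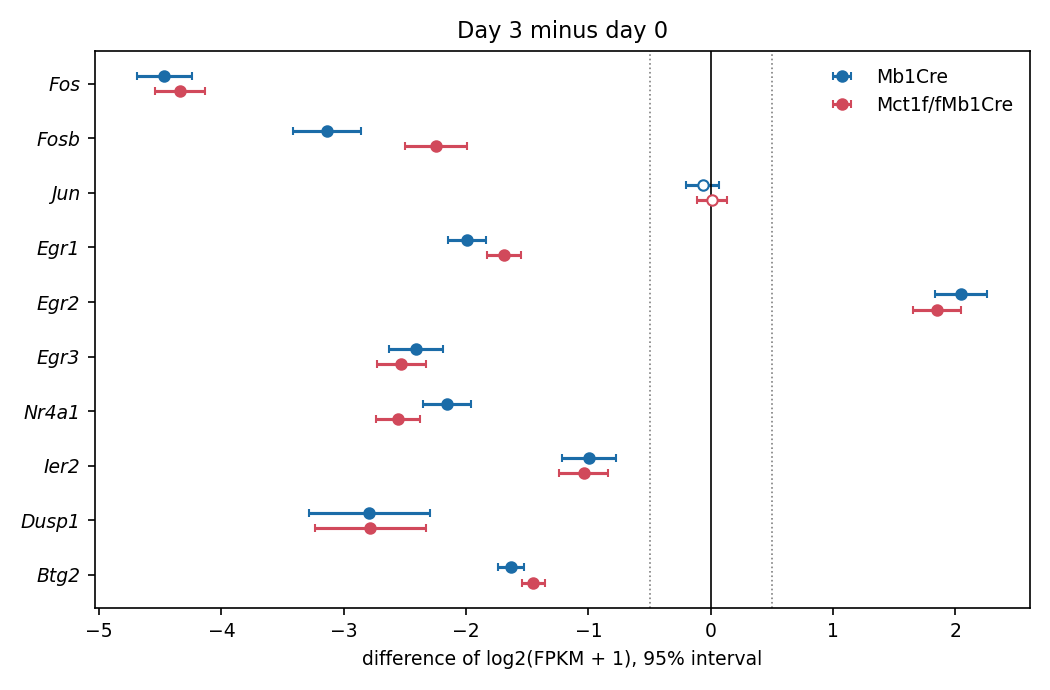
Difference between day 3 and day 0 in mean log2(FPKM + 1) for each gene (horizontal axis) with its 95% confidence interval from limma, Mb1Cre in blue and Mct1f/fMb1Cre in red. Filled points were called and open points were not, and dotted lines mark the limit of 0.5. Jun lies at -0.07 and 0.01, Egr2 at 2.05 and 1.85, and the other 8 genes between -4.47 and -0.995.

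Markers of myeloid, erythroid, T and NK cells and the sex of the mice moved with the day. In bulk RNA, fewer cells of a type and less RNA per cell cannot be told apart. Of 8 myeloid markers, all were called lower on day 3 in both genotypes, and 7 were more than 10 times higher on day 0. Their summed level was 1020 to 1829 FPKM on day 0 and 15.5 to 26.2 FPKM on day 3, with Lyz2 (lysozyme) the highest at 614 to 809 FPKM on day 0 and 10.0 to 20.4 FPKM on day 3. The 5 erythroid markers summed to 124 to 230 and 4.34 to 7.92 FPKM, and 1 of them, Hbb-bs, was listed at 0 in every day 3 library. Hbb-bt, at 4.31 to 7.69 FPKM, made up most of the day 3 sum and was not called lower in control cells. The 8 T and NK cell markers summed to 58.8 to 71.0 and 6.54 to 8.41 FPKM. The 2 platelet markers summed to 3.17 to 9.06 and 2.11 to 3.79 FPKM, ranges that overlap, and of them Ppbp alone was called lower on day 3. The 6 B cell markers, led by Cd79a, summed to 4183 to 4612 FPKM on day 0 and 2182 to 2271 FPKM on day 3, and 5 activated B cell markers to 142 to 166 and 490 to 553 FPKM, so the markers of the labelled cell type were present on both days. Myeloid cells also express these immediate-early genes, and the part of other cells in the differences between the days was not tested.

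The Y-linked gene Ddx3y had 0.24, 0.02 and 0.20 FPKM in the control libraries and the second Mct1-deficient library of day 0, 31.1 FPKM in the first Mct1-deficient library of day 0, and 14.7 to 16.9 FPKM in the 5 libraries of day 3. In control cells the day and the sex of the mice therefore cannot be told apart. In Mct1-deficient cells the first day 0 library alone, set against day 3, gave differences of -4.44 for Fos, -3.16 for Dusp1 and 1.92 for Egr2. This library also had the highest summed myeloid (1829 FPKM) and erythroid markers (230 FPKM) of day 0, and their part in these differences was not tested. With only that library on day 0, its own spread is not known.

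The targeted gene was checked before the genotypes were compared. Slc16a1, the symbol of Mct1, had 22.58 and 22.95 FPKM in control and 10.82, 9.81 and 9.50 FPKM in Mct1-deficient cells on day 3, a log2 difference of -1.11 (adjusted p = 9.07e-06). On day 0 it was low in both, at 4.33 and 3.80 against 3.71 and 4.06 FPKM, and did not separate the genotypes (adjusted p = 0.844), so at day 0 the genotype rests on the labels.

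On day 0 Fosb was lower in Mct1-deficient than in control cells, and no other gene of the 10 was called. Fosb passed the filter through day 0 alone, where the control libraries held its highest values, so this call is a description. Of all tested genes 0.277% were called on day 0 and 0.037% were called lower. As given above, Fosb had 8.33 and 7.98 FPKM in control and 3.24 and 4.65 FPKM in Mct1-deficient cells, 48.4% of the control, and its log2 difference was -0.90 (standard error 0.12, 95% confidence interval -1.18 to -0.63, adjusted p = 0.0118). The call was lost with a pseudocount of 0.1 (log2 difference -1.05, adjusted p = 0.177), without the filter on low values (adjusted p = 0.0601), with the day 0 libraries alone in the fit (adjusted p = 0.284) and at a log2 limit of 1. The call was also lost when the first control library of day 0 was left out (log2 difference -0.88). Leaving out each day 0 library in turn gave log2 differences from -1.11 to -0.70, in fits with 1 library left in a group. Among the 3 libraries with low Ddx3y, of which only 1 was Mct1-deficient, the difference was -0.70, with the spread taken from the other groups. The library left out there, the first Mct1-deficient library, had the lowest Fosb and also the highest myeloid markers, which summed to 1829 FPKM against 1020 to 1214 FPKM in the other 3 libraries of day 0, and the highest erythroid markers, which summed to 230 against 124 to 143 FPKM. Their part in the Fosb value was not tested.

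The other genes moved less on day 0. Fos was at 79.8% of the control (log2 difference -0.32, 95% confidence interval -0.54 to -0.09, adjusted p = 0.274), Ier2 at 85.2% (-0.23, adjusted p = 0.417), Egr1 at 88.2% (-0.18, adjusted p = 0.368) and Btg2 at 89.4% (-0.16, adjusted p = 0.246). With Fosb these were the 5 genes whose Mct1-deficient libraries both lay below both control libraries, an ordering that 19.7% of all tested genes showed, and the same 5 had an unadjusted p under 0.05, as did 11.7% of all tested genes. The libraries overlapped for Jun, Egr2, Egr3, Nr4a1 and Dusp1. The highest of the 4 day 0 libraries was a control library for 9 of the 10 genes, the exception being Nr4a1, with 42.16 FPKM in the first Mct1-deficient library, beside 52.4% of all tested genes. The median log2 difference was -0.17 for the 10 genes and -0.0025 for all tested genes.

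Each day 0 library was also taken alone, because the 4 did not agree on every gene. The second control library was the highest for 5 genes (Fos, Jun, Ier2, Dusp1 and Btg2) and the first for 4 (Fosb, Egr1, Egr2 and Egr3). Dusp1 had the widest spread among the genes that did not separate the genotypes: 59.12 FPKM in the second control library, 45.37 in the first Mct1-deficient library, 37.55 in the first control library and 26.55 in the second Mct1-deficient library. Only 0.869% of all tested genes had a larger ratio of the highest to the lowest value (with 1 FPKM added), and the 2 control libraries alone differed 1.57-fold, against 1.34-fold between the genotype means. Leaving out each day 0 library in turn moved the genotype difference of Dusp1 from -0.05 to -0.81, and it was never called.

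The genotypes were next compared on day 3, after activation. None of the 10 genes was called, and 2.42% of all tested genes were, a share at which 0 calls among 10 genes does not set them apart. 2 genes had an unadjusted p under 0.05 in limma, Nr4a1 and Ier2, as did 29% of all tested genes, and with no limit on the difference 1 of them, Nr4a1, passed the adjusted p, as did 15.2% of all tested genes. Nr4a1 had 7.68 and 8.41 FPKM in control and 5.61, 6.95 and 5.99 FPKM in Mct1-deficient cells, 76.9% of the control, without overlap (log2 difference -0.34, standard error 0.08, adjusted p = 0.0194). Leaving out each library in turn gave adjusted p values from 0.00734 to 0.151, the highest without the second control library of day 3.

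Ier2 was at 82.7% of the control on day 3 (log2 difference -0.27, 95% confidence interval -0.48 to -0.07, adjusted p = 0.0724) and Dusp1 at 70.6% (-0.42, -0.87 to 0.03, adjusted p = 0.204). The interval of Dusp1 includes the spread of its day 0 libraries, which the fit shares, with coefficients of variation of 31.6% and 37.0% against 1.66% and 7.33% on day 3. With the day 3 libraries alone in the fit, Dusp1 had an adjusted p of 0.00749 at the same difference, which is under the limit of 0.5. In 5 genes, Fos, Egr2, Nr4a1, Ier2 and Dusp1, every Mct1-deficient library lay below both control libraries, as 26.1% of all tested genes did, and in 1 gene, Egr1, every one lay above them (110% of the control, adjusted p = 0.225), as 21% of all tested genes did. Jun, Fosb, Egr3 and Btg2 overlapped. The intervals of Jun (-0.13 to 0.11) and Btg2 (-0.07 to 0.12) were the narrowest of the 10, and the interval of Dusp1 was the widest. Lyz2 was higher in Mct1-deficient cells on day 3, with 16.8 to 20.4 FPKM against 10.0 and 11.5 FPKM, and the myeloid markers summed to 23.1 to 26.2 against 15.5 to 17.3 FPKM; their part in the genotype values was not tested.

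**Figure D4:**
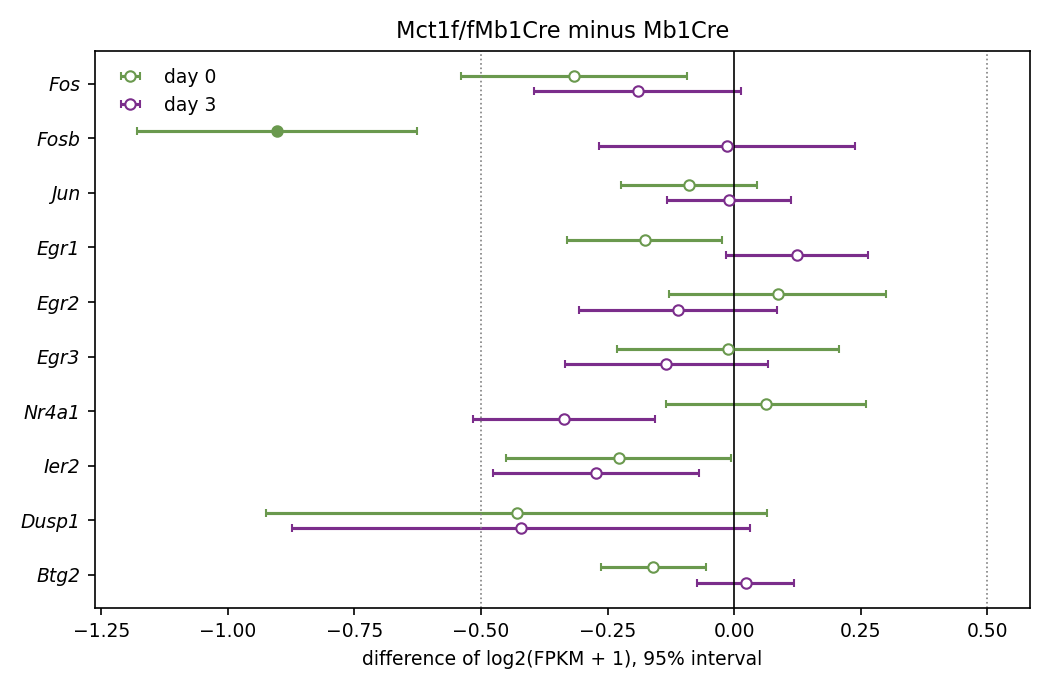
Difference between Mct1f/fMb1Cre and Mb1Cre in mean log2(FPKM + 1) for each gene (horizontal axis) with its 95% confidence interval from limma, day 0 in green and day 3 in purple. The filled point, Fosb on day 0 at -0.90, was called and the open points were not, and dotted lines mark the limit of 0.5.

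Whether the genotype difference itself changed between the days was tested by the interaction of genotype and day. Fosb was the 1 gene of the 10 past the limits (difference of differences 0.89, adjusted p = 0.0103), as were 3.23% of all tested genes. Since Fosb had at most 0.04 FPKM in every day 3 library, this value restates the day 0 difference of -0.90 and says nothing of day 3, and it did not pass with a pseudocount of 0.1 (adjusted p = 0.128). Nr4a1 (-0.40, adjusted p = 0.0662) and Egr1 (0.30, adjusted p = 0.0730) came next, in opposite directions, and neither passed.

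The genes around these 10 were taken from lists of their families and pathways. Beside the counts below, 24.8% of all tested genes rose and 33% fell in control cells, and 23.4% and 33.2% in Mct1-deficient cells. Between the genotypes 0.277% were called on day 0, 2.42% on day 3 and 3.23% in the interaction. In limma 11.7% had an unadjusted p under 0.05 on day 0 and 29% on day 3. Some lists lie near these shares, and their counts are descriptions. Of 11 tested AP-1 family genes outside the 10, 5 rose and 2 fell on activation in control cells and 4 and 2 in Mct1-deficient cells. Batf, a factor that B cells need for class switching, went from 13.21 and 14.05 FPKM to 180.54 and 165.25 FPKM in control cells (log2 difference 3.57), and Atf3, a stress-induced factor, from 1.54 and 2.14 to 31.86 and 29.17 FPKM (3.48). These AP-1 family genes were higher on day 3 in the libraries in which Fos and Fosb were lower. On day 3 Batf3, a relative of Batf, had 28.84 and 25.16 FPKM in control and 5.44, 6.56 and 4.51 FPKM in Mct1-deficient cells (-2.12, adjusted p = 1.34e-05), and Fosl2 had 2.98 and 2.95 against 0.86, 1.17 and 1.23 FPKM (-0.93, adjusted p = 0.00149). In the interaction Batf3 (-2.17) was lower and Jund (0.51, adjusted p = 0.0472) higher. No AP-1 gene of this list was called on day 0 in limma, and 3 had an unadjusted p under 0.05.

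Of 37 tested genes on a list of other immediate-early genes, 12 rose and 20 fell in control cells and 11 and 16 in Mct1-deficient cells. Nfil3, a basic leucine zipper factor, rose from 1.60 and 2.52 to 167.58 and 172.37 FPKM in control cells (log2 difference 5.82). Rgs2, a regulator of G protein signalling, fell from 50.04 and 50.64 to 0.25 and 0.41 FPKM (-5.27), and Sgk1, a serum- and glucocorticoid-induced kinase, from 15.80 and 16.40 to 0.34 and 0.43 FPKM (-3.63). The list thus moved both ways, with a median of -0.65 in control and -0.29 in Mct1-deficient cells. On day 3 Socs3, a cytokine feedback inhibitor, had 33.48 and 30.89 FPKM in control and 17.36, 18.35 and 19.42 FPKM in Mct1-deficient cells (-0.78, adjusted p = 3.55e-04), and Plk2, a polo-like kinase, was also lower (-0.51, adjusted p = 0.00259). Socs3 was called in the interaction (-0.99).

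Among 3 tested genes of the EGR, NR4A and NAB group outside the 10, Nab1, which encodes a corepressor of EGR proteins, rose in both genotypes (log2 difference 1.11 in control cells), and Nab2 fell in control cells (-0.75). None was called between the genotypes in limma, with 0 on day 0 and 3 on day 3 at an unadjusted p under 0.05.

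Of 12 tested DUSP and BTG/TOB genes, 4 rose and 4 fell on activation in each genotype. Dusp6, the ERK phosphatase, fell with Dusp1, from 52.29 and 46.52 to 2.79 and 3.65 FPKM in control cells (log2 difference -3.58). On day 3 this list held 4 genes that differed between the genotypes. Dusp14 had 5.06 and 4.78 FPKM in control and 1.65, 2.25 and 1.78 FPKM in Mct1-deficient cells (-1.04, adjusted p = 1.52e-04), Dusp4 had 22.96 and 26.10 against 11.88, 12.08 and 12.47 FPKM (-0.96, adjusted p = 0.00102), and Dusp5 was lower as well (-0.66, adjusted p = 0.00139). Dusp10, which acts on JNK and p38, was higher, with 16.59 and 17.32 against 29.50, 26.96 and 25.94 FPKM (0.66, adjusted p = 4.26e-04). Each of the DUSP genes that was lower had risen on activation in control cells, unlike Dusp1. The interaction was called for Dusp4 (-0.73), Dusp14 (-1.06), Dusp10 (0.77) and Btg3 (-0.76).

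Of 14 genes for the decay of AU-rich mRNAs, 2 rose and 3 fell in control cells, 3 and 4 in Mct1-deficient cells, and 0 were called between the genotypes in limma on either day, where 2 had an unadjusted p under 0.05 on each. Zfp36, Zfp36l1 and Zfp36l2, whose proteins bind AU-rich elements and speed the decay of immediate-early transcripts, were the 3 that fell in control cells. Of 18 ERK cascade genes, 1 rose and 5 fell in control cells and 0 and 5 in Mct1-deficient cells. Rasgrp1, a Ras exchange factor, fell from 45.85 and 45.84 to 10.50 and 10.39 FPKM (-2.03), and Rasgrp3, which acts downstream of the B cell receptor, was higher in Mct1-deficient cells on day 3 (0.50, adjusted p = 0.00200). Of 10 tested JNK and p38 cascade genes, 1 rose and 4 fell in control cells and 0 and 4 in Mct1-deficient cells, led by Mapk11 (-2.33 in control cells). Ksr1, an ERK scaffold (-0.51), and Mapk11 (0.61) were called in the interaction.

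Of 11 tested genes for SRF, its partners and the CREB family, 1 rose and 6 fell in control cells and 1 and 4 in Mct1-deficient cells. The gene that rose, Crem, a cyclic AMP response modulator, went from 5.23 and 5.33 to 26.09 and 24.77 FPKM in control cells (log2 difference 2.07) and was lower in Mct1-deficient cells on day 3, at 12.95, 12.96 and 11.91 FPKM (-0.96, adjusted p = 9.18e-06; interaction -0.87). Of 9 tested heat shock genes, 5 rose and 0 fell in each genotype, among them Hspd1, a mitochondrial chaperonin (1.76 in control cells). The others of this list were not called on activation, and a response to stress was not tested. None of the 9 was called between the genotypes in limma, with 3 on day 0 and 0 on day 3 at an unadjusted p under 0.05.

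Likeness to the 10 genes was measured as Pearson's r over the 9 libraries with the mean of their standardised log2 values, Egr2 included. The tested genes with the highest r outside the 10 were Hgs (0.997), Tpst2 (0.995), Slx1b (0.995), Galt (0.994) and Rela (0.994). The libraries share their day, and r is carried by the step between the days: Hgs had 29.69 to 33.42 FPKM on day 0 and 17.63 to 19.65 FPKM on day 3. Of the 10 genes themselves, 8 had r between 0.975 and 0.987, Egr2 had -0.982 and Jun 0.433. Each of the 10 is part of the mean it was set against, so these r are not comparable with those of the genes outside.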

How the data were processed

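RNA sequencing of 9 libraries of splenic B cells was analysed. The authors deposited 1 FPKM value per gene and library, rounded to 2 decimals. The submitters' processing notes name Bowtie2 and GRCm38/mm10, and the library data were assembled and analysed at the sequencing institute; the counting tool and its annotation are not given in the sources used here. Reads could not be recovered from FPKM, so depth is unknown and no counting interval is given; the precision rests on 2 or 3 libraries per group. The FPKM summed to 477079 to 491459 per library on day 0 and 547355 to 563586 on day 3, and within groups Pearson's r across genes, which are not independent replicates, was 0.993 to 0.998.

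The deposited FPKM were transformed as log2(FPKM + 1), with no scaling added. All genes whose mean reached 1 FPKM entered limma 3.58.1 (R 4.3.3) in 1 model of the 4 group means with a trended variance, and Benjamini-Hochberg adjustment ran over these 10823 genes. A call required an adjusted p under 0.05 together with a log2 difference larger than 0.5 in either direction. The interaction is the genotype difference on day 3 minus that on day 0. On simulated data with 100 genes changed by 0.75 and 100 by 1.5 on day 3, 94% and 97% were called. In the interaction 87% and 96% of them were. The noise was normal with each gene's own spread, and no change on day 0 was simulated.

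The 10 genes and the lists around them (178 further genes, markers included) were chosen with earlier results of these data known, and no list was tested. All 10 are named with every value. Of the lists, genes called between genotypes or in the interaction are named, with the 3 largest rises and falls in control cells over the immediate-early, AP-1, EGR/NR4A/NAB, DUSP/BTG and decay lists, 2 each way over the others, the highest marker genes and the 5 genes most alike. Nab1, Nab2, Zfp36, Zfp36l1, Zfp36l2, Egr4, Nr4a2, Nr4a3, Hbb-bs, Hbb-bt, Ppbp, Ddx3y and the genes set beside Dusp1 were named after their values were seen. Promoter windows were matched by gene and symbol in RefSeq for GRCm38.p6 and cut to the 250 bases before the start site, and exon overlaps come from GENCODE M21. The alternatives left out each library in turn, changed the pseudocount (0.1 or 5), the filter (none or 5 FPKM), the scaling (3 kinds) or the log2 limit (1 or none), dropped the trend, fitted the compared groups alone, or added a replicate block. Same-numbered libraries did not deviate together (correlations of -0.12 to 0.06), so the numbers were not treated as pairs.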

Additional observations from a re-analysis of the deposited data

Results flagged for a closer look

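The interaction of genotype and day passed the limits for Fosb (difference on day 3 minus that on day 0 of 0.89, adjusted p = 0.0103 in limma). Fosb was at 0.01 to 0.04 FPKM in all 5 libraries of day 3 and passed the filter through day 0 alone, so the value restates the day 0 difference of -0.90 and is no separate result. It did not pass with a pseudocount of 0.1 (adjusted p = 0.128).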

How the results depend on the processing

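Of 50 results (10 genes in 5 comparisons), 34 kept their direction and their side of the limits under each alternative that gave a value. The 18 activation calls were kept, except that Ier2 in control cells was lost at a log2 limit of 1 and that Fosb gave no value in either genotype with a filter at 5 FPKM, which left 8 calls in each. The number of the 10 genes called on day 3 between genotypes went from 0 to 1 (Nr4a1) with no log2 limit. The number on day 0 went from 1 to 0 with a pseudocount of 0.1, with no filter, with a filter at 5 FPKM (which leaves out Fosb), with only the compared groups in the fit, with the replicate block and at a log2 limit of 1, and ranged from 0 to 1 over the libraries left out. For the interaction it went from 1 to 0 with a pseudocount of 0.1, the filter at 5 FPKM and the log2 limit of 1. The cause of these losses was not tested, except that the filter and the limits remove the gene by construction. With only the compared groups in the fit no interaction could be had. Where 1 library was left, it was assumed to vary like the other groups.

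With the replicate block the day 0 difference of Fosb was -0.90 with an adjusted p of 0.0940, the interaction of Dusp1 was -0.036, and no other call of the 10 genes changed; the pairing of the numbers is not given by the labels. A crossed block for the control libraries, added after seeing the data, gave the same 9 calls in activation.

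Signs turned for 12 uncalled results, none of them past both limits in any setting. For Jun the genotype difference on day 3 was 0.0019 scaled to a common total, 0.0081 with median-of-ratios scaling and 0.0080 with quantile normalization, and -0.030 to 0.0101 with libraries left out; on day 0 it was -0.18 to 0.0058 with libraries left out, in the interaction -0.016 to 0.17, and in control activation -0.16 to 0.028 and 0.14 with median-of-ratios scaling. Its activation in Mct1-deficient cells was -0.16 scaled to a common total. With libraries left out, the genotype difference ranged from -0.0041 to 0.042 for Btg2 on day 3 and, on day 0, from -0.088 to 0.26 for Egr2, -0.10 to 0.081 for Egr3 and -0.021 to 0.15 for Nr4a1, and the interaction from -0.0043 to 0.26 for Fos, -0.13 to 0.054 for Ier2 and -0.37 to 0.39 for Dusp1. Egr3 on day 0 was 6.6e-04 with median-of-ratios scaling, and the interaction of Dusp1 was -0.055 with a pseudocount of 0.1. Over all genes the number called between genotypes was 262 on day 3 and 30 on day 0, against 54 to 1650 and 2 to 101 under the alternatives, and 350 in the interaction against 56 to 1020. Values under about 0.1 FPKM, such as Fosb on day 3, carry few digits.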

Other observations

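The order of the 4 day 0 libraries in Dusp1 (second control, first Mct1-deficient, first control, second Mct1-deficient) was looked for in other genes after its values were seen. It was shared by 302 of the 10823 tested genes, 2.79%. Among 127 genes with a mean above 10 FPKM on day 0 and a ratio of highest to lowest above 1.5, it was found in 7: Dusp1 itself, Ddit4, an inhibitor of mTORC1, Zfp36l2, which binds AU-rich mRNAs, the chemokine receptor Cxcr4, the leucine zipper gene Tsc22d3, the salt-inducible kinase Sik1 and Rgs1, a regulator of G protein signalling. Tsc22d3 had 268.86, 230.77, 209.01 and 130.65 FPKM in this order, and Ddit4 had 103.79, 89.70, 70.66 and 41.20 FPKM. Cxcr4 had 253.40, 222.34, 181.34 and 122.51 FPKM. The highest library was 1.55 to 2.52 times the lowest in these 7 genes. Dusp1 set the order, and whether 7 of 127 is more than unlinked genes would give was not tested.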
